A study of Homo sapiens with 54 samples.

Results

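The ETS genes followed here were ETV1, SPDEF, EHF, ETS2 and ELK4. They were chosen by name, and each was found by its symbol in the deposited RNA-seq table, so that 5 of 19225 genes are described. RNA was measured in 54 libraries from the prostate cancer cell lines LNCaP, C4-2 and 22Rv1, with 18 groups of 3 biological replicates. LNCaP cells stem from a metastasis in a lymph node. C4-2 was selected from LNCaP and grows without androgen, and 22Rv1 was derived from a relapsed xenograft. Each is a single established line, so that a difference between lines cannot be told apart from a difference between these particular cultures. In such bulk samples fewer cells of a kind and less RNA per cell cannot be told apart either.

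The treatments lasted 12 h in medium with 10% fetal bovine serum, which itself contains steroids. The treated groups received E2 (estradiol) at 100 nM, the compound OSU-ERb-12 (OSU) at 100 nM, Enza (enzalutamide) at 1 µM, or Enza combined with either E2 or OSU at the same doses. The vehicle group received ethanol, the solvent of the agents. OSU-ERb-12 is known as a selective agonist of estrogen receptor beta and enzalutamide is an antiandrogen used against prostate cancer. The study asked what signalling through estrogen receptor beta does to gene expression in such cells.

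ETS proteins share a DNA-binding domain that reads a core of GGAA, and differ in the cofactors and kinases that control them. ETV1 belongs to the PEA3 group and is an oncogene in some prostate tumours, where gene rearrangements raise it. SPDEF and EHF are restricted to epithelia, and SPDEF was first described as a prostate factor that acts on the KLK3 promoter. ETS2 is a target of RAS and MAP kinase signalling. ELK4 is a ternary complex factor that binds DNA together with serum response factor.

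Library depth ran between 32819568 and 52417050 reads, and a single read stood for 0.0204 to 0.0323 CPM (reads per 1000000 of the effective library size). Transcripts of luminal prostate cells were present in the vehicle groups of every line, and FOXA1 averaged 415 CPM in 22Rv1, 389 CPM in C4-2 and 432 CPM in LNCaP. Of the markers of other cell types, KRT14 (basal), COL3A1 and LUM (both fibroblast) averaged under 1 CPM in each of these groups. Others were present: DST (basal) averaged 58.7 CPM in 22Rv1, 23.8 CPM in C4-2 and 32.3 CPM in LNCaP. COL1A1 (fibroblast) averaged 2.82 CPM in 22Rv1, 7.56 CPM in C4-2 and 18.1 CPM in LNCaP. VWF (endothelium) averaged 0.077 CPM in 22Rv1, 4.5 CPM in C4-2 and 17.6 CPM in LNCaP, and CD68 (macrophage) 4.55, 8.29 and 8.14 CPM in the same lines. The part of these genes in the differences between lines was not tested. One library titled as C4-2 vehicle replicate 1 carries a cell line tag that names 22Rv1. Its log2 values correlated at 0.9984 with the mean of the other C4-2 libraries and at 0.8987 with that of 22Rv1, and it was kept as C4-2. This library, C4-2 E2 replicate 3, 22Rv1 vehicle replicate 3 and 22Rv1 OSU with Enza replicate 2 stood apart in earlier results of these data. Without those 4 libraries the number of genes called for E2 in C4-2 was 396, against 817 with them.

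In vehicle-treated cells the 5 ETS genes differed between lines, ETV1 and EHF by the most and ELK4 by the least. Per kilobase of exon, EHF was the most abundant of the 5 in C4-2, at 174 CPM per kb, and in LNCaP, at 115 CPM per kb. In 22Rv1 SPDEF led at 43.1 CPM per kb and EHF followed at 22.5 CPM per kb. ETS2 lay lowest in LNCaP, at 2.33 CPM per kb, and ETV1 lay lowest in C4-2 and in 22Rv1, at 0.00629 and 3.54 CPM per kb. The lengths are unions of all annotated exons and understate the level of a gene that uses a short transcript.

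**Figure D1:**
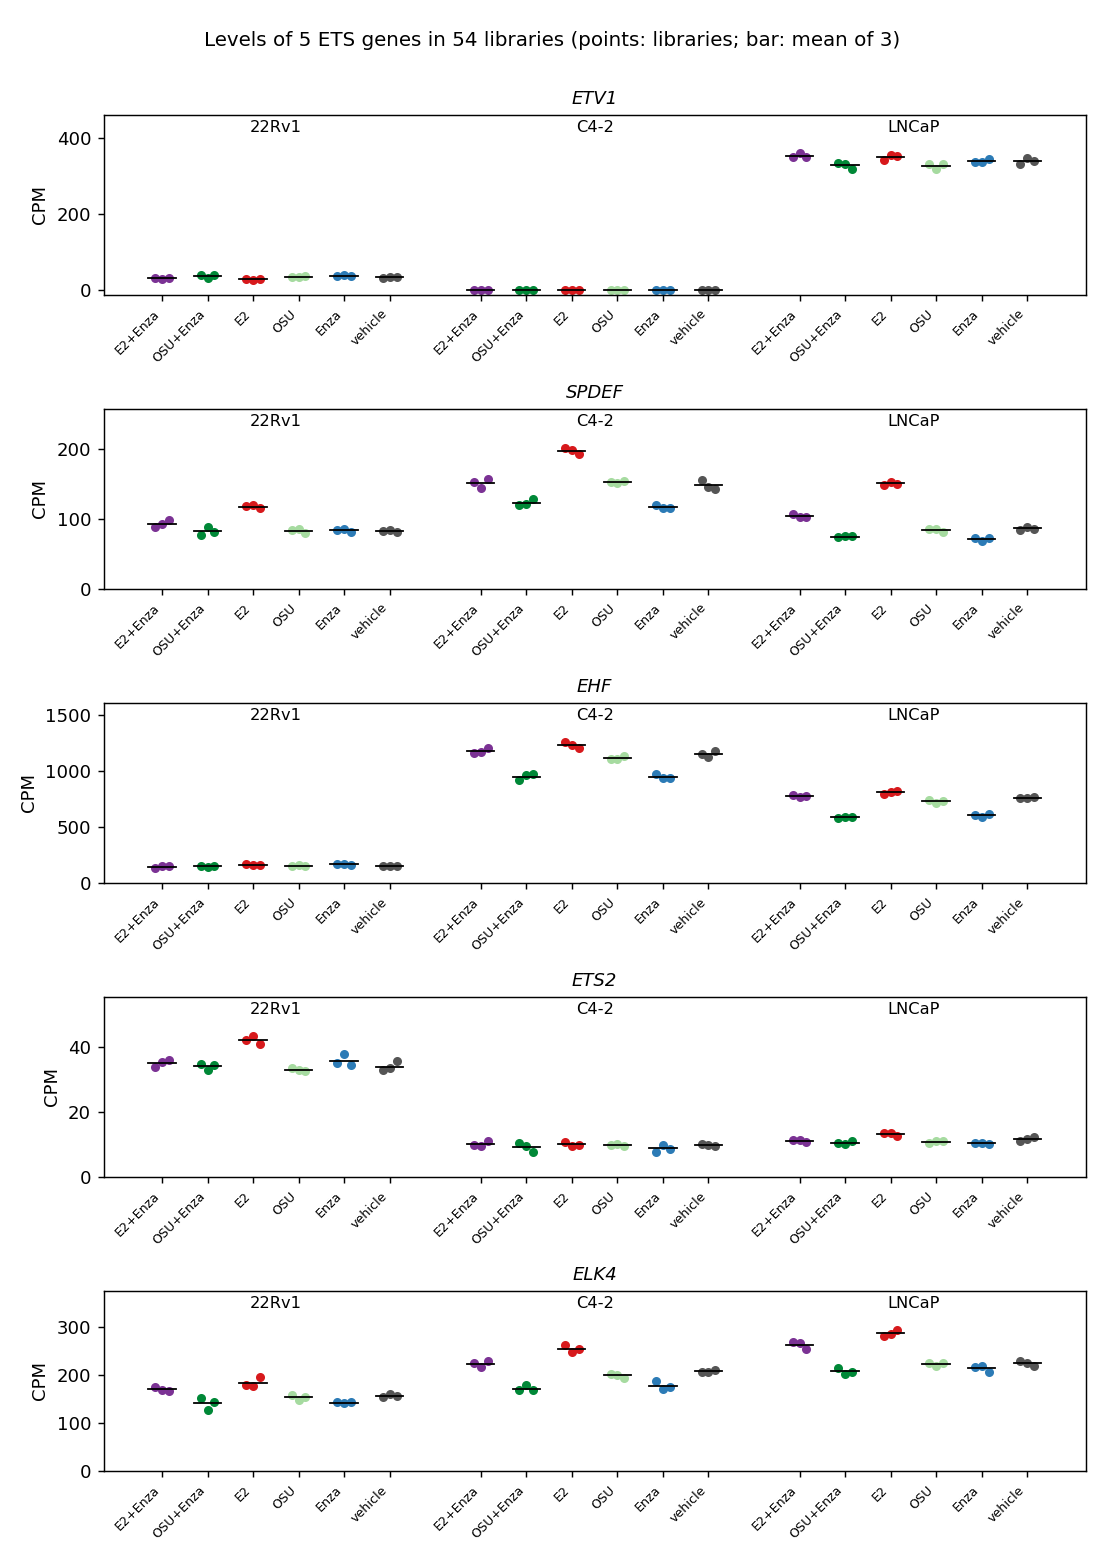
CPM (vertical axes, linear) of ETV1, SPDEF, EHF, ETS2 and ELK4 in all 54 libraries; points are libraries, bars are means of 3, and treatments run along the horizontal axis within each line. ETV1 sits at or near 0 in all 18 C4-2 libraries and between 317 and 359 CPM in LNCaP, and SPDEF is highest with E2 in every line.

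ETV1 (Entrez Gene 2115; minus strand, chr7:13891229-13991425 in GRCh38.p14) was abundant in LNCaP and almost absent from its derivative C4-2. Its level in vehicle-treated cells was 31.7, 36.1 and 34.2 CPM in 22Rv1, 0.181, 0 and 0 CPM in C4-2, and 331, 346 and 339 CPM in LNCaP. The lines did not overlap. Of the 18 C4-2 libraries 15 had 0 ETV1 reads, which allows up to 0.0611 to 0.0968 CPM in a library (3 reads). The other 3 held 8 reads (vehicle replicate 1), 28 reads (E2 replicate 1) and 2 reads (Enza replicate 3). Over the vehicle libraries, 8 reads in C4-2 stood against 44978 in LNCaP, a level 5555-fold lower in C4-2 (95% counting interval 2819 to 12867). Without vehicle replicate 1, the library with the conflicting tag, the C4-2 vehicle group had 0 ETV1 reads. Over all treatments, 38 reads in C4-2 stood against 270919 in LNCaP and 26649 in 22Rv1. The counting interval and the limit of 3 reads address counting error only, and both treat reads as independent. Even numbers made up 66.7% of all counts from 1 to 10, so reads are not independent molecules. The interval is therefore too narrow, and the limit too low, even for counting error.

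LNCaP is known to carry a rearrangement that moved the ETV1 locus into the MIPOL1 region on another chromosome. DGKB, a diacylglycerol kinase gene and the measured gene next to ETV1 on its higher-coordinate side, averaged 0.559 ± 0.162 CPM in 22Rv1, 6.09 ± 0.319 in C4-2 and 17.6 ± 1.04 in LNCaP (SD, n = 3 each). It was lower in C4-2 than in LNCaP by a log2 difference of -1.46 ± 0.12 (SE; adjusted p = 9.81e-15, limma). MIPOL1 averaged 33.8 ± 1.11 CPM in 22Rv1, 24.1 ± 1.22 in C4-2 and 51.8 ± 1.53 in LNCaP, and was also lower in C4-2 than in LNCaP (log2 difference -1.09 ± 0.05, adjusted p = 1.26e-25, limma). FOXA1, a neighbour of MIPOL1 on its chromosome, differed less (-0.15 ± 0.04, adjusted p = 0.000659, limma). DNA copy number or rearrangement was not measured, and its part in these levels was not tested.

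EHF (Entrez Gene 26298; plus strand, chr11:34621093-34663288) was the member with the next widest spread between lines. It had 145, 151 and 151 CPM in 22Rv1, 1147, 1126 and 1174 CPM in C4-2, and 760, 756 and 765 CPM in LNCaP. Each line's libraries lay outside the range of the others. The log2 difference was 0.60 ± 0.04 for C4-2 against LNCaP and -2.35 ± 0.04 for 22Rv1 against LNCaP (SE; adjusted p = 2.08e-19 and 3.58e-45, limma). Between 22Rv1 and C4-2 it was -2.94 ± 0.04 (adjusted p = 2.22e-49, limma).

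SPDEF (Entrez Gene 25803; minus strand, chr6:34537802-34556329) had 82.8, 83.2 and 81.1 CPM in 22Rv1, 156, 146 and 142 CPM in C4-2, and 83.9, 88.5 and 85.9 CPM in LNCaP. C4-2 stood above both other lines, whose own difference did not pass the test (22Rv1 against LNCaP, log2 difference -0.06, 95% interval -0.14 to 0.02, adjusted p = 0.135, limma). The difference between C4-2 and LNCaP was 0.78 ± 0.04 (SE; adjusted p = 1.38e-22, limma).

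ETS2 (Entrez Gene 2114; plus strand, chr21:38805183-38824955) ran the other way, with 32.8, 33.4 and 35.6 CPM in 22Rv1, 10, 9.79 and 9.4 CPM in C4-2, and 11, 11.5 and 12.3 CPM in LNCaP. The 22Rv1 libraries lay about 3-fold above the rest (log2 difference 1.51 ± 0.07 against LNCaP and 1.75 ± 0.07 against C4-2, adjusted p = 3.05e-25 and 6.03e-28, limma). ELK4 (Entrez Gene 2005; minus strand, chr1:205607943-205632011) was the most even of the 5. It had 154, 159 and 155 CPM in 22Rv1, 205, 206 and 210 CPM in C4-2, and 229, 225 and 217 CPM in LNCaP. It was lower in 22Rv1 than in LNCaP (-0.52 ± 0.04, adjusted p = 4.30e-16, limma). The small difference between C4-2 and LNCaP (-0.11 ± 0.04, adjusted p = 0.0166, limma) no longer passed without LNCaP vehicle replicate 1 (-0.09, adjusted p = 0.0783).

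Against LNCaP, 2 of the 5 were higher and 3 lower in C4-2, in a comparison where 66.7% of all genes tested were called in either direction. Shares of called genes given below also count both directions. In 22Rv1 1 was higher and 3 were lower than in LNCaP, where 83.3% of genes were called, and 2 were higher and 3 lower than in C4-2, where 84.7% were called.

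Of 23 other ETS genes 22 were in the table and 20 were tested between lines. In 22Rv1 12 were higher and 5 lower than in LNCaP, a share close to the 83.3% of all genes called, with a median log2 difference of 0.30, against -0.03 for all genes tested. The filter required 1 CPM in 3 or more libraries. ERG, ETV4, ETV7 and SPI1 passed it through 22Rv1 alone, with at most 0.99, 0.973, 0.46 and 0.583 CPM in LNCaP. ETS1 passed it through LNCaP alone. The filter thus largely set the direction of these genes, which enter the counts and the median. The PEA3 group split between the lines. ETV4 averaged 46.4 ± 2.21 CPM in 22Rv1, 0.731 ± 0.176 in C4-2 and 0.765 ± 0.18 in LNCaP. ETV5 averaged 33.3 ± 2.52 CPM in 22Rv1, 0.321 ± 0.127 in C4-2 and 0.587 ± 0.0328 in LNCaP (SD, n = 3 each). The line rich in ETV1 was thus poor in ETV4 and ETV5, and C4-2 was poor in all 3.

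Of the other ETS genes C4-2 alone was above 20 CPM for ELF5, an epithelial factor (1.57 ± 0.162 CPM in 22Rv1, 23.2 ± 0.551 in C4-2 and 0.911 ± 0.328 in LNCaP). FEV averaged 5.98 ± 1.35 CPM in C4-2 and under 1 CPM in 22Rv1 and LNCaP. ERG, named after its values were seen because it is the ETS gene most often rearranged in prostate cancer, averaged under 1 CPM in each line's vehicle group. ETS1 was at 0 reads in the 3 vehicle libraries of 22Rv1 and at 3.43 ± 0.172 CPM in those of LNCaP.

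**Figure D2:**
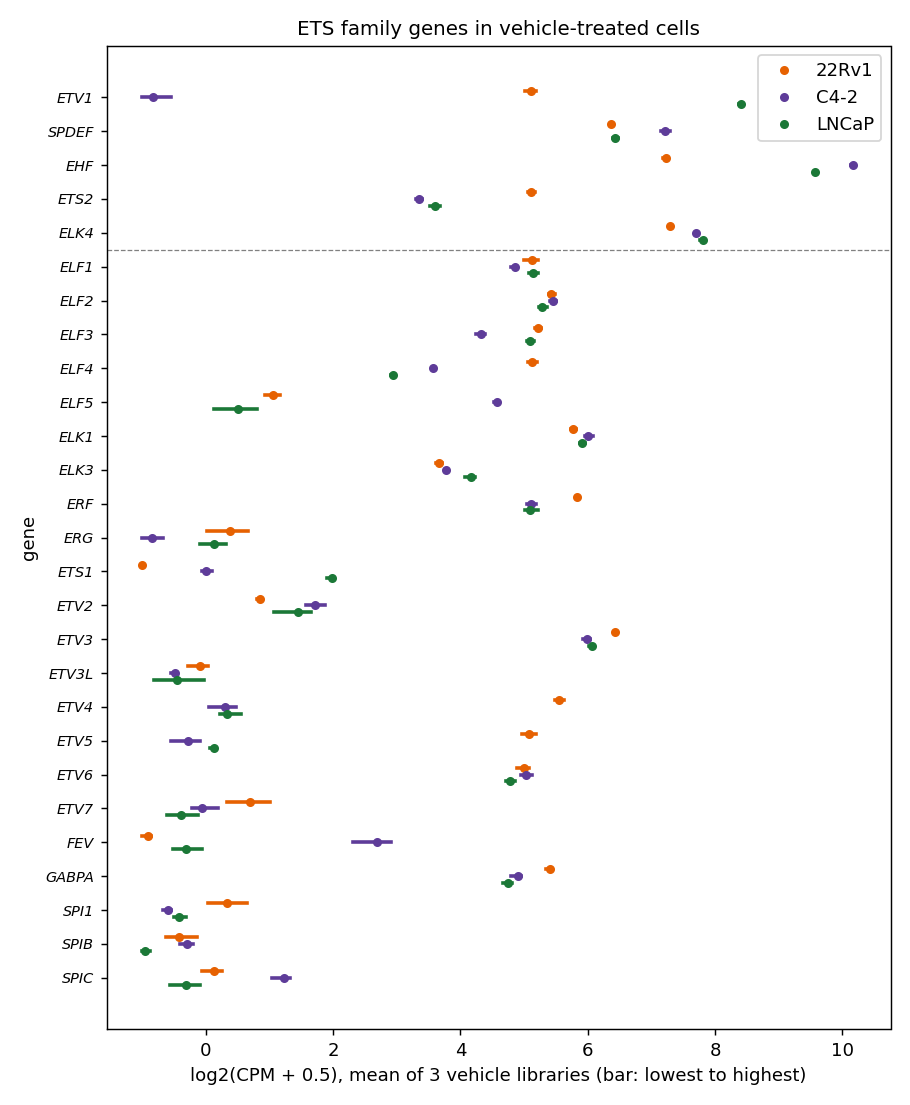
Vehicle levels of the 5 genes (above the dashed line) and 22 other ETS genes (below it) as log2(CPM + 0.5) on the horizontal axis; points are means of 3 libraries and bars run from the lowest to the highest library. ETV4 and ETV5 stand high in 22Rv1 alone, ELF5 and FEV in C4-2 alone, and ETV1 in LNCaP with a lower level in 22Rv1.

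Genes used as readouts of RAS and MAP kinase signalling, the pathway that acts on several ETS proteins, were mostly higher in 22Rv1 than in LNCaP. Of 10 such genes 9 were higher and 1 lower than in LNCaP in vehicle, where 83.3% of all genes were called (40.4% higher and 43% lower). Their median log2 difference was 1.80, against -0.03 for all genes tested. SPRY4 and EPHA4 passed the filter through 22Rv1 alone. In LNCaP they reached at most 0.891 and 0.244 CPM, and in C4-2 at most 0.108 and 0.129 CPM. The filter thus largely set the direction of these genes, which enter the count of higher genes and the median. DUSP6, a phosphatase that acts on ERK, averaged 20.7 ± 1.56 CPM in 22Rv1, 0.362 ± 0.0461 in C4-2 and 0.499 ± 0.0837 in LNCaP. CCND1, which encodes cyclin D1, averaged 1616 ± 33.4 CPM in 22Rv1, 346 ± 9.77 in C4-2 and 311 ± 7.26 in LNCaP. DUSP4 was the exception against LNCaP, at 13 ± 0.74 CPM in 22Rv1, 120 ± 6.04 in C4-2 and 71.9 ± 2.99 in LNCaP. PHLDA1 was higher in 22Rv1 than in LNCaP but lower than in C4-2 (6.18 ± 0.423, 2.6 ± 0.251 and 79.4 ± 3.87 CPM). Of 8 known regulators of ETS proteins, 5 were higher and 2 lower in 22Rv1 than in LNCaP (median log2 difference 0.20), a share close to that of all genes.

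E2 raised SPDEF and ELK4 in all 3 lines, and SPDEF by the most in LNCaP. SPDEF had 118, 119 and 115 CPM with E2 against 82.8, 83.2 and 81.1 CPM with vehicle in 22Rv1. It had 201, 198 and 193 CPM with E2 against 156, 146 and 142 CPM with vehicle in C4-2. In LNCaP it had 149, 153 and 150 CPM with E2 against 83.9, 88.5 and 85.9 CPM with vehicle. In each line every E2 library lay above every vehicle library. The log2 fold change was 0.51 ± 0.05 in 22Rv1, 0.42 ± 0.04 in C4-2 and 0.80 ± 0.03 in LNCaP (SE; adjusted p = 6.84e-09, 7.13e-08 and 8.89e-17, limma). The response differed between lines (F = 25.3, adjusted p = 1.69e-06, limma, in a comparison where 29.1% of genes were called). The log2 difference from the response in LNCaP was -0.39 in C4-2 and -0.29 in 22Rv1, comparisons in which 8.41% and 11.2% of genes were called, whereas 22Rv1 and C4-2 were not told apart (difference 0.09, 95% interval -0.02 to 0.21, where 28.8% were called).

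ELK4 had 179, 176 and 195 CPM with E2 against 154, 159 and 155 CPM with vehicle in 22Rv1. It had 261, 247 and 254 CPM with E2 against 205, 206 and 210 CPM with vehicle in C4-2. In LNCaP it had 280, 285 and 292 CPM with E2 against 229, 225 and 217 CPM with vehicle. The groups did not overlap in any line. The log2 fold change was 0.23 ± 0.05 in 22Rv1, 0.29 ± 0.04 in C4-2 and 0.35 ± 0.03 in LNCaP (SE; adjusted p = 0.00186, 1.00e-05 and 1.16e-09, limma). The call in 22Rv1 was lost under cyclic loess scaling (0.14, adjusted p = 0.0833). The test of a difference between lines did not pass (F = 2.23, adjusted p = 0.226, limma).

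Against vehicle, E2 called 4 of the 5 in 22Rv1 (3 higher and 1 lower), where 27.7% of all genes were called. It called 2 of the 4 tested in C4-2, both higher, where 5.82% were called, and 3 of 5 in LNCaP, all higher, where 24.9% were called. ETV1 did not pass the filter on low values in C4-2 and was not tested there. SPDEF and ELK4 made up both of the calls in C4-2, and they kept them without the libraries that stood apart (0.47 and 0.29, adjusted p = 1.89e-07 and 0.000507, limma).

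The other members were called with E2 in 1 line each. ETS2 had 42.1, 43.3 and 41 CPM with E2 against 32.8, 33.4 and 35.6 CPM with vehicle in 22Rv1, with no overlap (log2 fold change 0.31 ± 0.05, adjusted p = 8.49e-05, limma). In LNCaP it had 13.4, 13.6 and 12.7 CPM with E2 against 11, 11.5 and 12.3 CPM with vehicle, which just missed the threshold (0.18 ± 0.07, adjusted p = 0.0506, limma). EHF in LNCaP was 0.09 ± 0.03 higher with E2 on the log2 scale (adjusted p = 0.0304, limma), a call that was lost on leaving out any of 4 of the 6 libraries (E2 replicate 2 or 3, or vehicle replicate 1 or 2; 0.08 to 0.09). Its values in 22Rv1 and C4-2 were 0.12 and 0.10 and did not pass.

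ETV1 went the other way in 22Rv1. It had 29.6, 27.8 and 31 CPM with E2 against 31.7, 36.1 and 34.2 CPM with vehicle (log2 fold change -0.20 ± 0.07, adjusted p = 0.0287, limma). The groups did not overlap, but the call was lost on leaving out E2 replicate 1 or 2 or vehicle replicate 2 or 3 (-0.21 to -0.16). In LNCaP ETV1 had 340, 355 and 352 CPM with E2 against 331, 346 and 339 CPM with vehicle, and these overlapped (0.04, 95% interval -0.02 to 0.11).

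**Figure D3:**
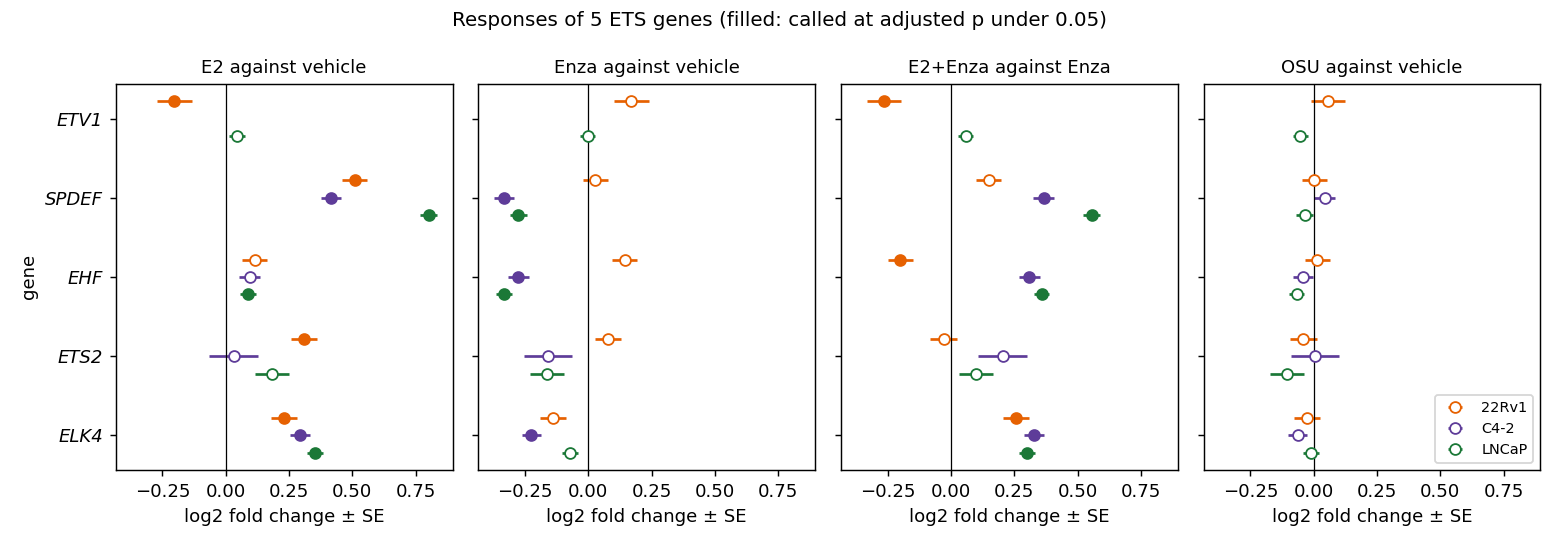
Log2 fold changes with SE (horizontal axis) of the 5 ETS genes in 22Rv1, C4-2 and LNCaP, in 4 comparisons; filled points were called at an adjusted p under 0.05 and open points were not. SPDEF and ELK4 lie to the right with E2 in each line, SPDEF and EHF lie to the left with Enza in C4-2 and LNCaP, and all OSU points are open and near 0.

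Enza lowered SPDEF and EHF in LNCaP and C4-2, the lines in which the androgen-regulated genes KLK3 and TMPRSS2 are abundant. EHF had 975, 937 and 934 CPM with Enza against 1147, 1126 and 1174 CPM with vehicle in C4-2, and 603, 591 and 616 CPM with Enza against 760, 756 and 765 CPM with vehicle in LNCaP. All Enza libraries lay below all vehicle libraries in both lines. The log2 fold change was -0.28 ± 0.04 in C4-2 and -0.33 ± 0.03 in LNCaP (SE; adjusted p = 3.74e-05 and 1.77e-09, limma). In 22Rv1 EHF had 165, 168 and 161 CPM with Enza against 145, 151 and 151 CPM with vehicle, higher in each Enza library, although the change did not pass the test (0.14 ± 0.05, adjusted p = 0.190, limma). The response of EHF differed between lines (F = 48.9, adjusted p = 9.52e-10, limma, where 13.3% of genes were called), with 22Rv1 above LNCaP by 0.48 and above C4-2 by 0.42. Between those pairs of lines the Enza response of 2 of 5 members, EHF and SPDEF, was called, where 4.49% and 11.3% of genes were called. Between C4-2 and LNCaP limma called 0 of 5, where 4.99% were called and 1 member had an unadjusted p under 0.05. The 5 include ETV1, which failed the filter within C4-2 and entered this fit through the other lines. Its C4-2 response to Enza rests on 8 vehicle reads and 2 Enza reads, so comparisons with C4-2 could hardly call it.

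SPDEF had 120, 116 and 116 CPM with Enza against 156, 146 and 142 CPM with vehicle in C4-2, and 71.8, 68.4 and 72.8 CPM with Enza against 83.9, 88.5 and 85.9 CPM with vehicle in LNCaP. Neither pair of groups overlapped (log2 fold change -0.33 ± 0.04 and -0.28 ± 0.03, adjusted p = 2.27e-06 and 4.31e-07, limma). In 22Rv1 it had 84.4, 85.7 and 81.7 CPM with Enza against 82.8, 83.2 and 81.1 CPM with vehicle, which overlapped (0.03, 95% interval -0.07 to 0.13). This difference between lines also passed its test (F = 23.4, adjusted p = 9.30e-06, limma).

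ELK4 was lowered by Enza in C4-2, to 186, 170 and 175 CPM, against 205, 206 and 210 CPM with vehicle (-0.22 ± 0.04, adjusted p = 0.000363, limma). Its values of -0.14 in 22Rv1 and -0.07 in LNCaP did not pass (adjusted p = 0.218 and 0.122, limma), nor did the test of a difference between lines. ETS2 and ETV1 were not called with Enza in any line in which they were tested.

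Against vehicle, Enza called 0 of 5 members in 22Rv1, where 0.659% of genes were called and 3 members had an unadjusted p under 0.05. It called 3 of 4 in C4-2, all lower, where 8.44% were called, and 2 of 5 in LNCaP, both lower, where 20.4% were called. One fit of all 54 libraries called EHF higher in 22Rv1 at the same value of 0.14 (adjusted p = 0.0345, limma).

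With Enza present, E2 still raised SPDEF in C4-2 and LNCaP and ELK4 in all 3 lines. SPDEF had 152, 144 and 157 CPM with E2 and Enza against 120, 116 and 116 CPM with Enza alone in C4-2, and 107, 103 and 103 CPM with both against 71.8, 68.4 and 72.8 CPM with Enza alone in LNCaP. These groups did not overlap (log2 fold change 0.37 ± 0.04 and 0.55 ± 0.03, adjusted p = 3.87e-07 and 1.87e-13, limma). In 22Rv1 it had 88.3, 92.9 and 98.3 CPM with both against 84.4, 85.7 and 81.7 CPM with Enza alone, and missed the threshold (0.15 ± 0.05, adjusted p = 0.0665, limma), although 1 fit of all 54 libraries called it (adjusted p = 0.0095). ELK4 was higher by 0.26 ± 0.05 in 22Rv1, 0.33 ± 0.04 in C4-2 and 0.30 ± 0.03 in LNCaP (SE; adjusted p = 0.000989, 1.27e-06 and 2.53e-08, limma).

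EHF responded to E2 in opposite directions in the presence of Enza. It had 1156, 1167 and 1203 CPM with both against 975, 937 and 934 CPM with Enza alone in C4-2, and 784, 766 and 771 CPM with both against 603, 591 and 616 CPM with Enza alone in LNCaP. With both agents it thus stood near the vehicle level in C4-2 and LNCaP (log2 fold change over vehicle 0.03 in C4-2 and 0.03 in LNCaP, neither called). In 22Rv1 it had 133, 145 and 152 CPM with both against 165, 168 and 161 CPM with Enza alone, lower in each library (-0.20 ± 0.05, adjusted p = 0.00766, limma). That call was lost without E2 and Enza replicate 1 (-0.15, adjusted p = 0.103). Against vehicle, EHF with both agents was not called in 22Rv1 either (-0.06, adjusted p = 0.46, limma). A difference between lines in the E2 response with Enza present was not tested. ETV1 in 22Rv1 was also lower with both than with Enza alone (-0.26 ± 0.07, adjusted p = 0.0122, limma), at 31.8, 30.5 and 33.1 CPM against 36.6, 40.5 and 37.8 CPM. That call was lost without E2 and Enza replicate 2 or Enza replicate 2 (-0.23 and -0.22).

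E2 in the presence of Enza called 3 of 5 members in 22Rv1 (1 higher and 2 lower), where 7.94% of genes were called. It called 3 of 4 in C4-2 and 3 of 5 in LNCaP, all higher, where 7.38% and 23.1% were called. Set against vehicle, the combination left SPDEF higher in LNCaP (0.28 ± 0.03, adjusted p = 1.71e-06, limma) and in 22Rv1 (0.18 ± 0.05, adjusted p = 0.0189, limma), and ELK4 higher in LNCaP (0.23 ± 0.03, adjusted p = 1.75e-05, limma). The SPDEF call in 22Rv1 was lost on leaving out E2 and Enza replicate 3, vehicle replicate 1 or vehicle replicate 3 (0.14 to 0.18). These are 1 of 5 members in 22Rv1, 0 of 4 in C4-2 (1 at an unadjusted p under 0.05) and 2 of 5 in LNCaP, where 13.8%, 0.0784% and 7.42% of genes were called.

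The E2 response of some members depended on whether Enza was present. The interaction, the log2 response to E2 with Enza minus that without it, was -0.25 ± 0.05 for SPDEF and 0.27 ± 0.04 for EHF in LNCaP (adjusted p = 0.000833 and 6.92e-05, limma; 2 of 5 members, where 9.05% of genes were called). In 22Rv1 it was -0.36 ± 0.07 for SPDEF, -0.32 ± 0.07 for EHF and -0.34 ± 0.07 for ETS2 (adjusted p = 0.0133, 0.0315 and 0.0296, limma; 3 of 5 members, where 0.424% of genes were called). On leaving out 1 of the 12 libraries in turn, the 22Rv1 call was lost in 3 cases for SPDEF, 9 for EHF and 8 for ETS2, while the value stayed between -0.40 and -0.26. In C4-2 it called 0 of 4, where 1.50% of genes were called, and EHF came nearest (0.21 ± 0.06, adjusted p = 0.0608, limma; 1 member at an unadjusted p under 0.05). One fit of all 54 libraries called that value for EHF (adjusted p = 0.0182). ELK4 showed no called interaction in any line, with values of 0.03 in 22Rv1, 0.03 in C4-2 and -0.05 in LNCaP.

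OSU-ERb-12 alone called none of the members. In LNCaP SPDEF had 85.1, 85.8 and 81.3 CPM with OSU against 83.9, 88.5 and 85.9 CPM with vehicle, and the groups overlapped. The 95% interval of its log2 fold change ran from -0.10 to 0.03 in LNCaP, from -0.04 to 0.13 in C4-2 and from -0.10 to 0.10 in 22Rv1. For ELK4 the intervals ran from -0.08 to 0.06 in LNCaP, from -0.14 to 0.02 in C4-2 and from -0.13 to 0.08 in 22Rv1. Limma called 0 of 5 members in 22Rv1, 0 of 4 in C4-2 and 0 of 5 in LNCaP, where 0%, 0% and 0.014% of genes were called. At an unadjusted p under 0.05 there were 0, 0 and 1 members, the last being EHF in LNCaP (-0.07, adjusted p = 0.729). All OSU libraries lay below all vehicle libraries for EHF and ETV1 in LNCaP and for ELK4 in C4-2. For the other members and lines the OSU and vehicle libraries overlapped.

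Averaged over the lines, with 9 libraries on each side, OSU again called 0 of 5 and 0% of all genes, and 0 members had an unadjusted p under 0.05. The widest of the 5 intervals was that of ETV1 (-0.21 to 0.11), which C4-2 holds at or near 0 reads. With Enza present, OSU called 0 of 5 members in 22Rv1, 0 of 4 in C4-2 and 0 of 5 in LNCaP, where 0.101%, 0% and 0.0982% of genes were called. Before adjustment 1 member in 22Rv1, 0 in C4-2 and 1 in LNCaP had a p under 0.05. In LNCaP this was SPDEF, with 74.1, 74.8 and 74.6 CPM with OSU and Enza against 71.8, 68.4 and 72.8 CPM with Enza alone, all libraries higher (0.07 ± 0.03, adjusted p = 0.589, limma). EHF in 22Rv1 had 146, 137 and 153 CPM with OSU and Enza against 165, 168 and 161 CPM with Enza alone (-0.18 ± 0.05, unadjusted p = 0.00119, adjusted p = 0.199, limma). One fit of all 54 libraries called this difference (adjusted p = 0.00906, limma).

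ELK4 lies next to SLC45A3, a prostate transporter gene regulated by androgen, in the same orientation on chr1, and their ends are 25839 bases apart. A chimeric RNA that runs from SLC45A3 into ELK4 is known in prostate cancer, and gene counts do not separate its reads from those of either gene. SLC45A3 had 179, 175 and 156 CPM with E2 against 39, 38.1 and 42.9 CPM with vehicle in 22Rv1, a log2 fold change of 2.08. It rose by 1.50 in C4-2 and by 1.43 in LNCaP with E2, and fell by 0.64 in 22Rv1, 2.17 in C4-2 and 1.68 in LNCaP with Enza, all called by limma. Over the 18 group means, each centred on its line, ELK4 and SLC45A3 correlated at r = 0.95 (0.976 in 22Rv1, 0.965 in C4-2 and 0.916 in LNCaP, 6 groups each). The groups share libraries and vehicle controls within a line, and the value is a description. The range of ELK4 was narrower, from -0.25 to 0.32 around the line mean, against -1.80 to 1.87 for SLC45A3.

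Of the other measured genes near ELK4, CDK18, SLC60A1 and NUCKS1 gave 4 calls among 9 tests with E2 (CDK18 0.28 in C4-2, SLC60A1 0.35 and NUCKS1 0.21 in 22Rv1, and NUCKS1 0.11 in LNCaP), all higher like ELK4, where 27.7% of genes were called in 22Rv1, 5.82% in C4-2 and 24.9% in LNCaP. With Enza limma called 0 of 9, and NUCKS1 in C4-2 and SLC60A1 in LNCaP were under 0.05 before adjustment (-0.12 and 0.31, adjusted p = 0.0862 and 0.151). EHF correlated with SLC45A3 at 0.966 in LNCaP and 0.988 in C4-2 but at 0.055 in 22Rv1, over 6 groups each, and ETV1 in 22Rv1 at -0.966.

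**Figure D4:**
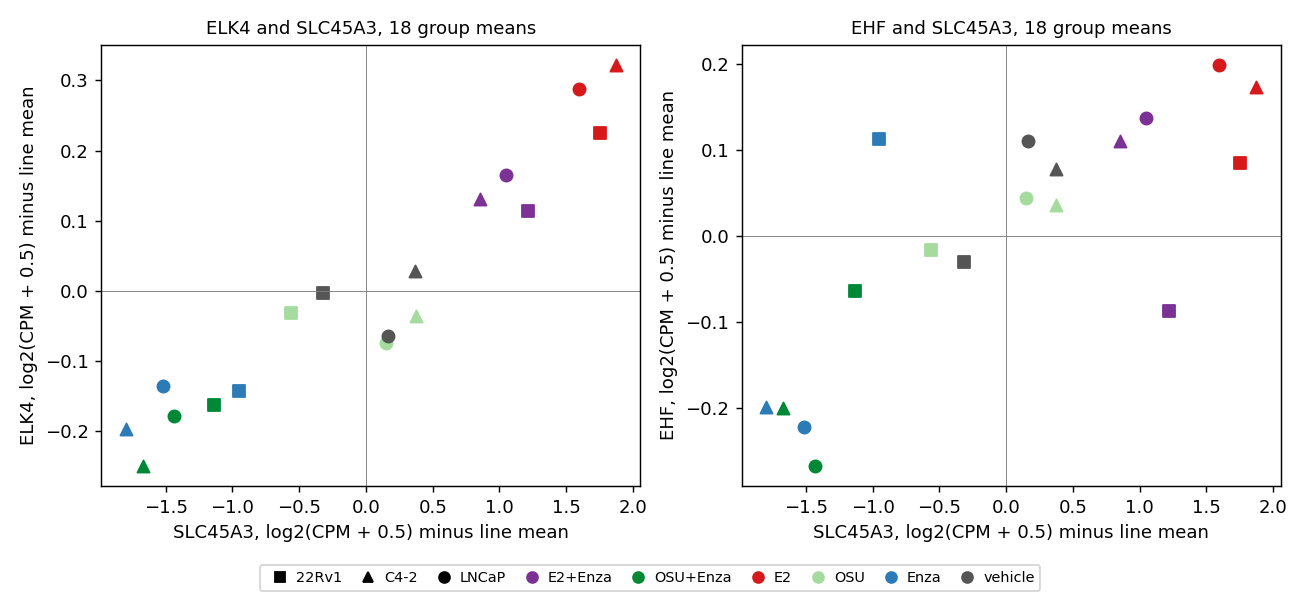
Group means of ELK4 (left, vertical axis) and EHF (right, vertical axis) against SLC45A3 (horizontal axes), as log2(CPM + 0.5) minus the mean of the line; shapes are lines and colours are treatments. ELK4 follows SLC45A3 in each line (r = 0.95 over 18 groups), and EHF does so in C4-2 and LNCaP but not in 22Rv1.

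The upstream sequences of ELK4 and SPDEF are shown because these genes rose with E2 in every line. The 250 bases before each RefSeq start (GRCh38.p14, minus strand, written 5′ to 3′ along the gene) are at chr1:205632012-205632261 for ELK4 and chr6:34556330-34556579 for SPDEF. Capitals mark GGAA or its reverse complement TTCC, the ETS core, and in ELK4 the longer ETS site CCGGAAGT, which contains 1 of its 3 GGAA matches.
ELK4: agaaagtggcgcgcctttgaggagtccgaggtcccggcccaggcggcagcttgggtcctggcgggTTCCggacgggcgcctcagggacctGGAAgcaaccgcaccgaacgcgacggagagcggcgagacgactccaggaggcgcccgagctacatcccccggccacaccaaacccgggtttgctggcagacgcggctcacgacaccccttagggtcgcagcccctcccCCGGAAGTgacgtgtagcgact
SPDEF: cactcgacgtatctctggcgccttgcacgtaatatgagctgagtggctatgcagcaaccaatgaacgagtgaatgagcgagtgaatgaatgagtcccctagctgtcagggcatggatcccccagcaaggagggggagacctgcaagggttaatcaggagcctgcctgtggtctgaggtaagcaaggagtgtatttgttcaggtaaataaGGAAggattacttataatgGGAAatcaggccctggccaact
ELK4 held 1 CCGGAAGT match, which 3.42% of 35116 RefSeq windows of this length hold on either strand, and SPDEF held none. SPDEF held 2 GGAA matches, a motif present in 92.7% of windows. AGAACA, a half-site of elements bound by the androgen receptor and related steroid receptors, was in neither window and in 12.4% of all windows. Its absence here says nothing of binding elsewhere, and sites of the estrogen receptors were not searched.

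A minority of the other ETS genes were called with E2. With this treatment, 3 of 17 tested were higher in 22Rv1, 1 of 14 was lower in C4-2, and 2 were higher and 3 lower of 14 in LNCaP, where 27.7%, 5.82% and 24.9% of all genes were called. Their medians were 0.05 in 22Rv1, -0.04 in C4-2 and 0.03 in LNCaP, against 0.03, -0.03 and -0.01 for all genes tested. ELF3, an epithelial factor related to EHF, moved opposite to SPDEF. It had 15.8, 16 and 15.5 CPM with E2 against 18.4, 20.5 and 19.8 CPM with vehicle in C4-2, and 25.1, 24.1 and 23.4 CPM with E2 against 32.4, 33.3 and 35.3 CPM with vehicle in LNCaP. It fell with E2 by 0.30 and 0.47 on the log2 scale (adjusted p = 0.00146 and 2.05e-07, limma).

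With Enza ELF3 rose to 29.1, 31.3 and 31.3 CPM in C4-2, against 18.4, 20.5 and 19.8 CPM with vehicle. In LNCaP it rose to 48, 46.3 and 49.8 CPM with Enza, against 32.4, 33.3 and 35.3 CPM with vehicle. The log2 fold changes were 0.63 and 0.51 (adjusted p = 3.44e-08 and 1.09e-07, limma). In 22Rv1 its values were 0.00 with E2 and 0.01 with Enza, and neither was called. In LNCaP ETS1 and ETV6 also fell with E2, by 0.54 and 0.23, and ELF2 rose by 0.31. In 22Rv1 ELF5, ELK1 and ETV5 rose with E2 by 0.62, 0.20 and 0.22.

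Among the MAP kinase readouts DUSP4 rose with E2 in each line, by 0.42 in 22Rv1, 0.60 in C4-2 and 0.30 in LNCaP, and fell with Enza by 0.68 in C4-2 and 0.65 in LNCaP (all called by limma). PHLDA1 rose by 0.67 in 22Rv1 and fell by 0.23 in C4-2 and 0.86 in LNCaP with E2. In all, 3 were higher and 2 lower of 10 with E2 in 22Rv1, 1 higher and 1 lower of 7 in C4-2, and 1 higher and 1 lower of 8 in LNCaP, beside the same shares of all genes (27.7%, 5.82% and 24.9%). Of the 8 regulators of ETS proteins, E2 called 2 lower in 22Rv1 and 1 higher in LNCaP, and limma called 0 in C4-2, where ATXN1 and SRF (2 of 8) were under 0.05 before adjustment. The gene called in LNCaP was ATXN1, which encodes a partner of the ETS target repressor CIC and rose by 0.71 (adjusted p = 5.32e-09, limma).

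Likeness to each member was measured as Pearson's r over the 18 line-centred group means across 16026 genes. ELL2 (r = 0.979), ACSL3 (0.974) and SLC15A2 (0.974) were most like SPDEF. SEC24D (0.97), SLC30A7 (0.964) and KIF5C (0.963) were most like ELK4, and SRFBP1 (0.96), IQGAP2 (0.959) and TMTC2 (0.946) most like EHF. MCFD2 (0.923), PPP1CB (0.92) and RBMXL1 (0.913) were most like ETS2. The highest values for ETV1 were lower, at 0.84 for SNORD54, 0.794 for CD2AP and 0.771 for GNRH1. Among the members, ELK4 and SPDEF correlated at 0.913, ETS2 and SPDEF at 0.87 and EHF and SPDEF at 0.78. ETV1 correlated with none of them above 0.355 over the 18 groups, which include the C4-2 groups at or near 0 ETV1 reads. Within LNCaP, over 6 groups, ETV1 correlated with SPDEF, EHF, ETS2 and ELK4 at 0.714, 0.63, 0.585 and 0.838. In 22Rv1 these values were -0.863, 0.02, -0.677 and -0.988. The C4-2 groups also enter the likeness values of ETV1.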

How the data were processed

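RNA-seq of total RNA (a stranded kit, per the labels) was deposited as 1 table of 54 libraries. Per the submitters' processing notes the authors used featureCounts and edgeR on hg38, after FastQC and Trimmomatic, and the series' design text names Rsubread. Whether counting used strand is not given in the sources used here. Each deposited value is a score: the log2 CPM of a gene (with a prior of 0.5 reads and the authors' effective library size), multiplied by a factor for each library so that columns sum to 1000000. Undoing this gave whole reads for 100% of values (tolerance 0.01), and CPM was recomputed from them. The planned test for log values was therefore kept.

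Limma 3.58.1 in R 4.3.3, with a mean-variance trend, was run on log2(CPM + 0.5) of genes that reached 1 CPM in 3 or more libraries, two-sided, with Benjamini-Hochberg adjustment over all genes and calls at 0.05. Fold changes on this scale understate those of low genes. Treatments were tested within a line (18 libraries, 12 residual degrees of freedom), and lines and differences of responses in 1 fit of 54 libraries (36 degrees of freedom). The script was tested on simulated data. The replicates are labelled biological, but the sources do not say whether cultures were grown on separate days.

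The members and gene lists were chosen with earlier results of these data known. Named genes were the members always, then up to 4 other ETS genes, 3 MAP kinase readouts and 3 ETS regulators per comparison, members' neighbours, and the 3 genes most like each member by r. FLI1 is not analysed here. Some marker genes are not reported here. Sequences are from RefSeq (GRCh38.p14), to which 18917 of 19225 genes matched. Same-numbered replicates deviated together (every correlation over 0.1) in 0 of 18 pairs of groups (range -0.285 to 0.221), so numbers were not taken as pairs. The alternatives were other scalings (TMM, total reads, cyclic loess), a pseudocount of 2 CPM, no filter, voom weights, a replicate block, the other fit, leaving out each library, and leaving out the 4 libraries that stood apart.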

Additional observations from a re-analysis of the deposited data

Results flagged for a closer look

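The following differences of response between lines passed limma's test of the difference itself in the fit of all 54 libraries. For E2, SPDEF rose less in C4-2 than in LNCaP (difference of log2 fold changes -0.39, adjusted p = 2.63e-06) and less in 22Rv1 than in LNCaP (-0.29, adjusted p = 0.00018). ETS2 rose more with E2 in 22Rv1 than in C4-2 (0.28, adjusted p = 0.0312), although the test over all 3 lines did not pass for ETS2 (F = 3.95, adjusted p = 0.0753, limma). The log2 response of SPDEF to Enza was higher in 22Rv1 than in LNCaP by 0.30 and than in C4-2 by 0.36 (adjusted p = 0.000213 and 1.62e-05). That of EHF was higher in 22Rv1 than in LNCaP by 0.48 and than in C4-2 by 0.42 (adjusted p = 2.00e-09 and 1.32e-07). The ETS2 difference was lost under total read and cyclic loess scaling (0.19 and 0.25), without the 4 libraries that stood apart (0.27) and on leaving out single libraries of the E2 or vehicle groups of either line. The others passed in every alternative run.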

How the results depend on the processing

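Of 148 member results 52 were called, and alternatives gave 2461 values. Of these 2374 kept their side of the threshold, 59 lost a call, 27 gained one and 1 reversed. Among the 2374, 69 values that were not called in either run changed sign. The reversed one was the E2 response of EHF in 22Rv1 against C4-2, -0.13 under cyclic loess (adjusted p = 0.0337). It was 0.02 and not called in the main run (adjusted p = 0.807, limma), so a call was gained with the opposite sign. Cyclic loess also gave 0.14 for ELK4 with E2 in 22Rv1 and 0.068 for EHF in LNCaP, which lost their calls, and 0.15 for EHF in C4-2 and 0.21 for ETS2 in LNCaP, which gained one. Total read scaling gave 0.034 for EHF with E2 in LNCaP (lost) and 0.12 in C4-2 (gained), and TMM 0.12 in C4-2 (gained). A pseudocount of 2 CPM and voom weights gave 0.16 and 0.19 for ETS2 with E2 in LNCaP (gained). One fit of all 54 libraries gained EHF in 22Rv1 with E2 (0.12) and Enza (0.14) and lost EHF in LNCaP (0.088) and ETV1 in 22Rv1 (-0.20) with E2. Leaving out single libraries gave 0.077 to 0.102 for EHF with E2 in LNCaP, 0.15 to 0.22 for ETS2 in LNCaP, -0.25 to -0.16 for ETV1 in 22Rv1 and -0.133 to -0.0927 for the vehicle level of ELK4 in C4-2 against LNCaP. The cause of these changes was not tested. The replicate block gave the same call for all 148 results (SPDEF with E2 in LNCaP 0.80 with it). Total read scaling moved the median of all genes to -0.10 for C4-2 against LNCaP and to 0.22 for 22Rv1 against C4-2. Without the 4 libraries that stood apart, 396 genes in place of 817 were called for E2 and 751 in place of 1184 for Enza in C4-2, and 1 fit of 54 libraries called 189 in place of 98 for Enza in 22Rv1. Depth limits ETV1 in C4-2, where most libraries had 0 reads.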
